A study of Mus musculus with 2 samples.

Results

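Ciliated cells are 1 of 15 classes that the authors gave to single epithelial cells of the thymic medulla (mTEC) from C57BL/6 mice. All cells carrying that class name in the deposited cell table were taken, which gave 197 of 9185 annotated cells. RNA was counted in cells sorted as mTEClo without Pdpn or CD104 on their surface, after blood cells with CD45 had been removed. Every sample was marked with its own tagged antibody against H2-Kb, called a hash tag, and the 7 samples shared 1 droplet run. The 3 control samples (Hnf4ctrl) had the genotype Foxn1(cre/+), with Hnf4a(fl/+) and Hnf4g(+/-). The 4 mutant samples (Hnf4dTEC) had Foxn1(cre/+), with Hnf4a(fl/fl) and Hnf4g(-/-). The controls were thus not wild type: they too carried the Cre, a floxed copy of Hnf4a and a null copy of Hnf4g. The Cre under Foxn1 acts on floxed genes in the epithelium of the thymus, whereas a null allele such as that of Hnf4g is carried by all cells of the animal. No age is given, and nothing in the labels says that the samples came from separate animals, so p-values measure only the spread between these samples, which may be technical.

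Medullary thymic epithelium contains mimetic cells, which switch on gene programs of peripheral tissues, and Ciliated cells carry the program of multiciliated epithelium. A multiciliated cell bears many motile cilia, whose beat moves mucus in the airway, fluid in the brain ventricles and eggs in the oviduct. Its program begins with the regulators Gmnc and Mcidas, which act with E2f4 and E2f5, and goes on through Myb, Trp73, Foxj1 and the Rfx factors. The cell first multiplies its centrioles, largely around deuterosomes built with Deup1. On each of them it then grows an axoneme of doublet microtubules with dynein arms, radial spokes and a central pair.

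The Ciliated cells numbered 14, 14 and 47 in control samples 1, 2 and 3 and 28, 22, 35 and 37 in mutant samples 1, 2, 3 and 4. Their summed counts ran from 267313 to 1287295 unique molecular identifiers (UMIs, each marking 1 captured RNA molecule) per sample. Per cell they were deep: the median was 23527 UMIs and 6130 genes, the second highest UMI median of the 15 classes after the class named TA, with 25336. Within each sample the median of Ciliated cells was 1.42 to 2.04 times that of all other annotated cells, and the sample's own hash tag gave 1.62 to 2.09 times as many UMIs. Scrublet, which scores barcodes that look like a pair of cells in 1 droplet, marked 15 of the 197 cells (7.61%), the highest percentage of any class, against 2.21% of all annotated cells. In 0 Ciliated cells was the tag of a different sample the strongest, and the matrix held 0 duplicated barcodes. Between samples of 1 genotype the chi-square per degree of freedom of the summed counts was at least 2.61, so no sample was a copy of another.

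The class name matched the markers given for it. Of Foxj1, Trp73, Tekt1, Dnah5, Ccdc39 and Rsph1, at least 4 were detected in 190 of the 197 cells and all 6 in 117, and the lowest number in any cell was 2. Among the 8988 other annotated cells, 7 had at least 4 of the 6. Foxj1, the forkhead factor that switches on motile cilia genes, had a UMI in 98.0% of Ciliated cells. Its UMIs were present in 10.06% of all other annotated cells and in 1.53% of Tuft cells, whose median depth was 12186 UMIs. Dnah5, a heavy chain of the outer dynein arm, was detected in 15.97% of all other annotated cells and in 29.3% of Tuft cells. For Rsph1, a radial spoke protein, these values were 19.01% and 30.9%. By level Tuft cells were the lowest class for Foxj1, but the highest class other than Ciliated for Dnah5 and Rsph1. Foxj1, Dnah5 and Rsph1 therefore did not separate the classes by presence alone. The other markers were rarer outside the class. Tekt1, Ccdc39 and Trp73 were detected in 92.9%, 91.4% and 71.6% of Ciliated cells, against 0.834%, 1.28% and 1.70% of all other annotated cells. Because the authors made the classes by clustering these counts, all differences between Ciliated and other cells are given as a description and were not tested.

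Levels are given as CPM, the UMIs of a gene per 1000000 UMIs of all cells summed in a sample. Foxj1 was at 591, 532 and 669 CPM in Ciliated cells of control samples 1 to 3 and at 521, 443, 675 and 444 CPM in mutant samples 1 to 4, against 6.69 to 14.6 CPM in the other annotated cells of the same samples. Trp73, a p53 relative that acts upstream of Foxj1 in airway epithelium, was at 72.7 ± 22.9 CPM (SD, n = 7) against 1.80 ± 0.765. All 7 samples lay above the other cells for both genes. Of the other classes, Secretory cells came nearest for Foxj1 with 80.7 CPM over all cells of the class, and Aire-expressing cells came nearest for Trp73 with 5.49 CPM.

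**Figure D1:**
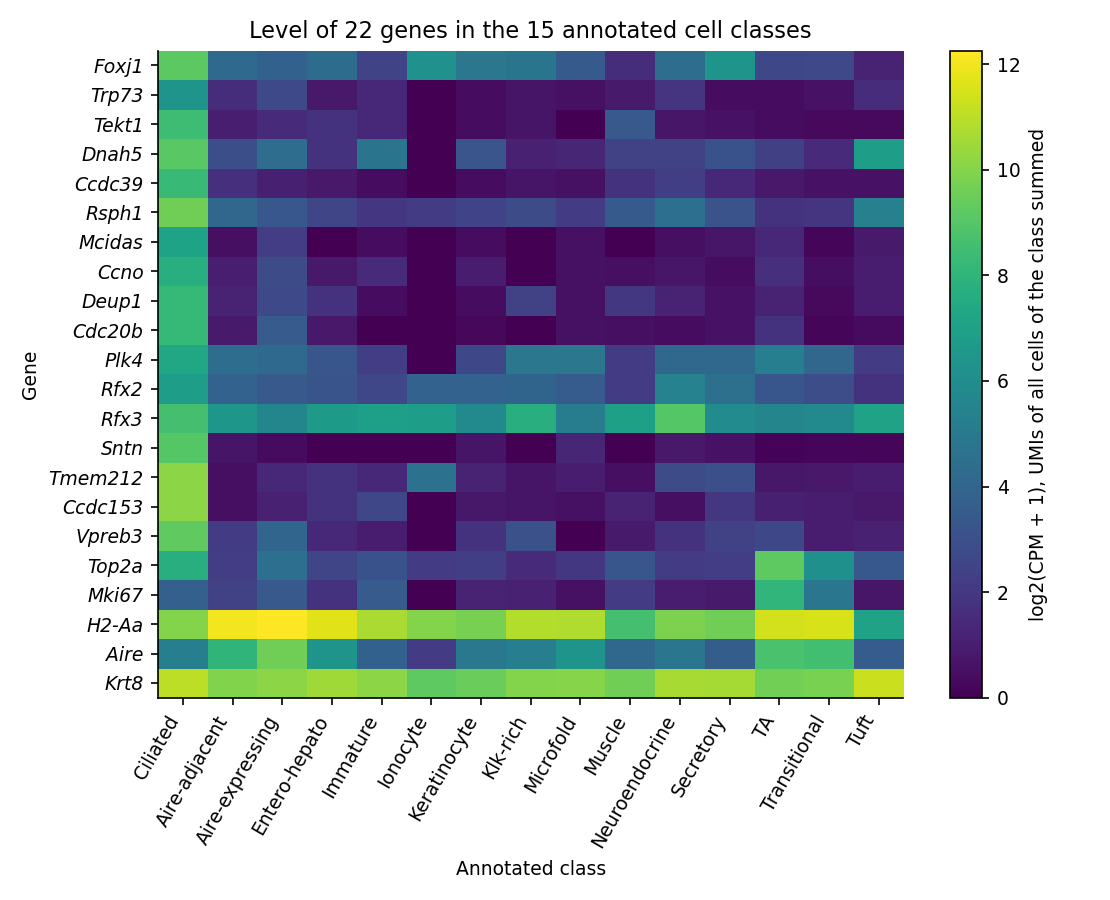
Heat map of the level of 22 genes (rows) in the 15 annotated classes (columns), as log2(CPM + 1) of the UMIs of all cells of a class summed. The upper rows, the given markers and the genes of centriole amplification and the axoneme, are bright in the Ciliated column, while Rfx3, Top2a, Mki67, H2-Aa, Aire and Krt8 have their highest level in another class.

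Among the 2987 genes with at least 50 CPM in Ciliated cells of each sample, the gene with the largest difference was Ccdc153, which encodes a coiled-coil protein of the axoneme. Its level was 1605, 980.2 and 1007 CPM in the control samples and 1222, 1354, 1076 and 919 CPM in the mutant samples, against 0.710 to 1.42 CPM in other cells. The difference of log2(CPM + 1) between Ciliated and other cells of the same sample had a median of 9.12 over the 7 samples. Next in order came Tmem212, a membrane protein gene, at 1234 CPM against 1.76 and a median difference of 8.97. The dynein light chain gene Dynlrb2 followed with 1814 CPM against 3.17 and a difference of 8.78. Sntn, which encodes a protein of the ciliary tip, was at 574 CPM against 0.262, a difference of 8.65. All 7 samples were high for each of these genes, with the lowest sample of Sntn at 389 CPM. Of the 30 genes with the largest differences, 14 were in one of the cilia gene lists described next. The last of them, Zmynd10, had a difference of 7.27, and the first gene outside had the same value at this precision. A median difference of at least 2 was found for 555 of the 2987 genes (18.6%), of at least 5 for 199, and of -2 or less for 22 (0.737%). The filter on the level in Ciliated cells removes genes that are low there, so the counts in each direction cannot be compared.

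A set of 141 cilia genes was read in 10 lists ordered by the steps of the program. In all 7 samples 137 of them were higher in Ciliated cells than in other cells, and the median difference was 4.36 on the log2 scale. Of the 2987 genes above, 1417 (47.4%) were higher in all 7 samples and the median difference was 0.32. Ciliated cells ranked first of the 15 classes for 135 of the 141 genes. The genes that were not higher in every sample were Gmnc, E2f4, Ttll7 and Pih1d3, the last with 0 UMIs in all Ciliated cells, which allows at most 0.619 CPM.

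The regulators of the program had a median difference of 2.66 over 10 genes, with a wide range. Gmnc, the earliest of them, was at 3.82 ± 2.61 CPM against 2.86 and was higher in 5 of 7 samples, so it did not stand apart. Mcidas, the next step, was at 41.2, 137 and 211 CPM in the control samples and at 77.3, 73.1, 141 and 143 CPM in the mutant samples, against a mean of 1.04 CPM in other cells. Its partners differed less: E2f4 was at 21.3 ± 8.92 CPM against 16.5 and E2f5 at 31.0 ± 10.6 against 18.3. Myb, which drives the entry into centriole amplification, was at 226 ± 89.1 CPM against 52.0. Foxn4, known from the multiciliated cells of frog skin, was at 25.9 ± 15.9 CPM against 0.352. Rfx2 was at 119 ± 17.4 CPM against 9.66, and Rfx3 at 416 ± 69.7 against 124. These RFX proteins bind the X-box of ciliary promoters, and for Rfx3 the Neuroendocrine class was higher, at 523 CPM.

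The 10 genes of centriole amplification were all higher in each of the 7 samples, with a median difference of 3.58. Deup1, the scaffold of the deuterosome, was at 161, 291 and 356 CPM in the control samples and 219, 148, 354 and 313 CPM in the mutant samples, against a mean of 1.43 in other cells. Ccno and Cdc20b, which share a genomic neighbourhood with Mcidas and are needed to make and release centrioles, were at 170 ± 90.4 and 243 ± 131 CPM against 1.56 and 1.60. Control sample 1 had the lowest Ccno, at 48.6 CPM, and control sample 3 the highest, at 312. The centriole duplication kinase gene Plk4, which dividing cells use as well, was at 130 ± 78.1 CPM against 11.7, and TA cells came next with 37.6 CPM. The procentriole genes Stil, Sass6 and Cep152 were at 66.9, 104 and 54.2 CPM against 2.06, 14.99 and 8.99.

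In the 4 lists of axoneme genes every member was higher in Ciliated cells in all 7 samples. Median differences were 4.46 for the outer dynein arm, 5.90 for the inner dynein arm and nexin link, 5.08 for the radial spoke and central pair and 4.71 for the doublet microtubule. Dnah5 was at 600 ± 159 CPM against 53.9 ± 12.8, and the docking gene Armc4 at 231 ± 65.7 against 0.505. Dnah12, an inner arm heavy chain, was at 669 ± 92.4 CPM against 3.13, and the ruler proteins Ccdc39 and Ccdc40, which set the spacing of arms and spokes, were at 304 and 133 CPM against 0.964 and 2.49. The central pair gene Hydin was at 323 ± 63.8 CPM against 1.08, and its neighbour in that structure Spag16 at 783 ± 175 against 3.14. Tekt1, a filament inside the doublet, was at 346 ± 41.6 CPM against 0.736. Of the tubulins, Tubb4b, the isotype of cilia, was at 2385 ± 151 CPM against 182, and the widely used Tuba1a at 1598 ± 165 against 538.

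The lists of dynein assembly, intraflagellar transport and tubulin modification had smaller median differences than the axoneme lists. The 10 genes of dynein assembly in the cytoplasm had a median difference of 3.1, with Zmynd10 at 235 ± 40.3 CPM against 0.480 and Dnaaf3 at 163 ± 28.3 against 62.2. Intraflagellar transport, which also serves the single primary cilium of other cells, had a median of 2.31 over 23 genes, from 1.06 for Ift52 to 4.6 for Traf3ip1. The tubulin-modifying enzymes had a median of 2.52. Here Agbl2, which trims tubulin tails, was at 131 ± 20.3 CPM against 1.21, whereas Ttll7 was at 10.6 ± 4.41 against 7.62 and was higher in 6 of 7 samples. The 20 genes chosen from airway ciliated cells had the largest median, 6.17, and among them Stk33 was higher in Neuroendocrine cells, with 327 CPM against 241 ± 33.2.

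The promoters of the cilia genes were searched for the X-box, the inverted repeat bound by RFX factors, because Rfx2 and Rfx3 were among the regulators detected. The spelling was GTNNCC, any 3 bases and then GNAAC, on either strand, within 250 bases before an annotated start in RefSeq promoters of build GRCm38.p6. A match was present for 16 of the 117 cilia genes found in that table (13.7%), and for 560 of all 27025 genes (2.07%). For the 1940 genes with a difference between -2 and 2 the share was 3.04%, and for the 154 with a difference of at least 5 it was 9.74%. Most matches lay near the start: 16 of 19 were within 100 bases, and the median distance was 45 bases. The following windows are shown because they place the motif, in capitals, in promoters of genes from several steps of the program. Each is written 5′ to 3′, and in Lrriq1, Ift22, Cfap206 and Ccno the spelled motif is the reverse complement of the capitals.
Spag16, central pair, chr1:69826844-69826903, plus strand: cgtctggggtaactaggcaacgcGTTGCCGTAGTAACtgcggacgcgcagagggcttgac
Pifo, primary and motile cilia, chr3:106001498-106001540, minus strand: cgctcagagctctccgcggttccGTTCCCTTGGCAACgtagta
Lrriq1, airway ciliated list, chr10:103236323-103236364, minus strand: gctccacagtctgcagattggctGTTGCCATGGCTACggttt
Ift22, intraflagellar transport, chr5:136908064-136908123, plus strand: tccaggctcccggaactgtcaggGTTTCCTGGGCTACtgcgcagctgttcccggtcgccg
Cfap206, axoneme, chr4:34730207-34730252, minus strand: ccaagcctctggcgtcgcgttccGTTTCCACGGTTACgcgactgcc
Tekt4, doublet microtubule, chr17:25471407-25471466, plus strand: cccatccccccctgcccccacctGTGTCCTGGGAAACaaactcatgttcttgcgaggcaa
Ccno, centriole amplification, chr13:112987560-112987619, plus strand: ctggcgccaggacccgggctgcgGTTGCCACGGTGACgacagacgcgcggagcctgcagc
Ccdc151, outer dynein arm, chr9:22002635-22002691, minus strand: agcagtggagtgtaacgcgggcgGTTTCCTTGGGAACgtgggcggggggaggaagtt

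All windows are written on the strand of their gene and overlap no exon annotated in GENCODE M21. The shorter motif GTTGCC, which overlaps the X-box, was found for 35.0% of the 117 genes and 11.8% of all genes. Other motifs were less unequal in the cilia lists: the forkhead spelling TGTTTAC was found for 4.27% against 3.54%, the E2F spelling GGCGGGAA for 2.56% against 2.13%, and CCAAT for 47.0% against 37.5%. For genes with a difference of at least 5, against those between -2 and 2, the forkhead shares were 6.49% and 2.58%. The E2F shares were 1.95% and 4.74%, and those of CCAAT 39.0% and 39.6%. The 5 motifs were kept, out of more that were looked at, after their shares had been seen. A match is a set of letters and not a bound site, and a promoter without one says nothing about the factor.

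Several genes of thymic epithelium were low in Ciliated cells, but not all. The 8 genes of the thymic epithelium list summed to 3987 CPM, rank 5 of the 15 classes, with a median of 3167 CPM in the classes other than Ciliated and the highest one, Tuft. Epcam, an epithelial surface gene, was at 451 ± 73.1 CPM against 968 ± 70.7, the lowest of the 15 classes. Foxn1, the master factor of thymic epithelium that also drives the Cre, had 24 UMIs in all Ciliated cells and 5.81 ± 5.28 CPM against 28.6 ± 4.47. The keratin gene Krt8 was at 2124 ± 269 CPM against 1674, higher in all 7 samples, and the epithelial factor gene Ehf at 63.6 ± 15 against 371. Aire, which lets mTEC express tissue antigens, was at 34.8 ± 18.9 CPM against 163 ± 49.8. The 7 genes of antigen presentation by MHC class II summed to 6015 CPM in Ciliated cells and to 29350 CPM in Aire-expressing cells. Ciliated cells ranked 9 of 15 by that sum.

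Most marker lists of other classes were low in Ciliated cells. Those of keratinocytes and proliferation were exceptions by their sums but not by all of their members. The 10 airway secretory genes summed to 152 CPM, against 8538 in Secretory cells and 27.1 to 3189 CPM in the remaining classes. The 10 tuft genes summed to 482 CPM against 11903 in Tuft cells, the 8 microfold genes to 73.0 against 14843 and the 8 muscle genes to 29.1 against 8373. The 8 keratinocyte genes summed to 489 CPM, rank 3 of 15 and far under the 13345 CPM of Keratinocyte cells, with a median of 158 CPM in the remaining classes. The 8 proliferation genes summed to 461 CPM, rank 2 after TA with 2072 CPM, with a median of 62.9 CPM in the remaining classes. Of these genes, 2 were higher and 4 lower than in other cells in all 7 samples, with a median log2 difference of -0.62. In the keratinocyte list only Dmkn was higher in Ciliated than in other cells in all 7 samples, at 399 ± 84.4 CPM against 217. The other 7 members were lower in all 7 samples. Among them Krtdap was at 7.02 to 20.003 CPM in 6 samples and at 195 in mutant sample 4. The endothelial gene Plvap was at 44.0 ± 17.7 CPM against 3.40, although Kdr had 0 UMIs and Cdh5 had 1. Of the genes with the largest negative differences, Mctp1 was at 235 CPM against 3838 and the tuft gene Dclk1 at 168 against 1025. Tuft cells made up 4118 of the 8988 other cells. Across 7886 genes, log2 levels of Ciliated cells correlated most with TA (r = 0.633), Transitional (0.618) and Aire-expressing cells (0.609), and least with Microfold cells (0.461). The 4 classes with the highest correlations, with Muscle as the next, were also the 4 deepest of the other classes, so these values are a description.

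Some genes known from other ciliated or flagellated tissues were present and others were absent. Meig1, which acts in the building of the sperm tail, was at 1530, 1392 and 1441 CPM in the control samples and 1201, 1113, 1571 and 1829 CPM in the mutant samples. It had a UMI in 95.9% of Ciliated cells and 3.28% of Tuft cells. Of 10 genes of sperm looked up, Akap3, Akap4, Odf1, Tnp1, Acrv1 and Catsper1 had 0 UMIs in all Ciliated cells. Odf2, which is used in centrioles as well as the sperm tail, was at 184 ± 24.5 CPM against 37.6, and Ldhc, the lactate dehydrogenase of germ cells, at 15.6 ± 8.18 against 0.638. Wt1, present in the lining of the reproductive tract, was at 10.8 ± 9.71 CPM against 0.168, and Pax8, a factor of oviduct epithelium, had 0 UMIs. Vpreb3, known from the precursor of the B cell receptor, was at 680 ± 153 CPM against 3.58.

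The genotypes were compared first by how many Ciliated cells they held. Their share of annotated cells was 1.75%, 1.53% and 2.98% for controls 1 to 3. For mutants 1 to 4 it was 1.69%, 1.60%, 2.35% and 2.69%. The means were 2.08% ± 0.780 (SD, n = 3) and 2.08% ± 0.527 (SD, n = 4), and the groups overlapped. Exact binomial intervals of 95%, which like all intervals here cover counting error only, were wide: 0.959% to 2.92% for control sample 1 and 1.90% to 3.70% for mutant sample 4. edgeR's quasi-likelihood test on cell counts of all classes gave a log2 fold change of -0.04 with an SE of 0.36 and a Benjamini-Hochberg adjusted p of 0.972. An exact two-sided permutation test of the 7 samples gave p = 1, with 0.0286 as the smallest value its 35 splits allow. Control sample 3 set the control mean: without it that mean was 1.64% ± 0.154, and the log2 fold change was 0.35.

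**Figure D2:**
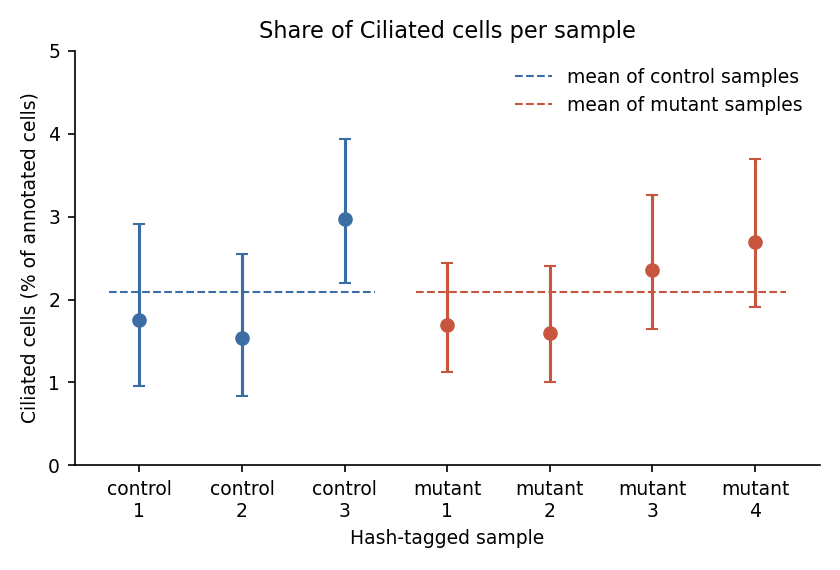
Ciliated cells as a percentage of the annotated cells of each hash-tagged sample, with exact 95% binomial intervals (bars) and the mean of each genotype (dashed lines). Both means lie at 2.08%, and control sample 3, at 2.98%, is the highest of the 7.

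The targeted genes were scarce in Ciliated cells of both genotypes. Hnf4a, a nuclear receptor of gut and liver, had 2, 2 and 13 UMIs in control samples 1 to 3 and 4, 1, 0 and 3 UMIs in mutant samples 1 to 4, too few for the test. Its means were 7.77 ± 2.21 CPM in control and 2.69 ± 2.34 in mutant samples, against 2.37 ± 0.732 and 1.52 ± 0.658 in the other annotated cells. By Hnf4a level Ciliated cells ranked 3 of the 15 classes. The labels do not say which exons are floxed, and counts from the 3′ end can include transcripts that lack them. Hnf4g, its relative, had 6, 47 and 18 UMIs in control samples 1 to 3 and 11, 4, 6 and 19 UMIs in mutant samples 1 to 4, or 22.4, 134 and 14.0 against 15.5, 8.12, 7.71 and 19.7 CPM. Control sample 2 stood high, and 32 of its 47 UMIs came from 1 cell that Scrublet marked. The log2 fold change of Hnf4g was -1.96 with an SE of 0.86 and an unadjusted p of 0.0548, and without control sample 2 it was -0.33. In the other annotated cells Hnf4g was at 121 ± 4.43 CPM in the control samples and 85.5 ± 5.06 in the mutant samples. With so few UMIs the targeted genes are no check of the genotype labels within Ciliated cells.

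No gene passed the test for a difference between the genotypes in Ciliated cells. With UMIs summed per sample, edgeR's quasi-likelihood test called 0 of 9609 genes (0%) at an adjusted p under 0.05. At an unadjusted p under 0.05 there were 103 higher (1.07%) and 133 lower (1.38%) in the mutant samples, together 2.46%, and DESeq2 called 0 of 9603 genes, with 58 higher and 89 lower unadjusted. On simulated counts with these sample sizes the test recovered 38 of 100 genes changed 2-fold and 91 of 100 changed 4-fold, so the depth would have missed many changes of the smaller size. The changed genes all had a mean of at least 20 CPM, and the simulated spread followed its trend with level. Changes were simulated in both directions, but not for genes with a mean under 20 CPM, which the test also covered. Without any filter on low counts edgeR called 43 genes, 11 higher and 32 lower. Many of these rested on few cells: the highest single cell held a median of 40.4% of a gene's UMIs, against 2.85% for the cilia genes. Csn2, with 1124 UMIs in 112 cells and 6.85% in the highest, did not, and 18 of the 43 had also passed the filter. In the cilia lists there were 0 of the 43. Since only 18 of the 9609 genes that passed the filter were called, this 0 is no result about the cilia genes. Of the genes described next, Spink1, Krt5, Timp3 and Sprr1a were among the 43. Without control sample 3 the filtered test called 1 gene, the milk protein gene Csn2, with a log2 fold change of 2.14 and an adjusted p of 0.0205.

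Levels of the cilia genes lay close in the genotypes. Of the 141, 137 could be tested, with 0 called, and the unadjusted p was under 0.05 for 1 lower and 1 higher gene, against the 1.38% and 1.07% of all genes. Spag16 was at 849, 1086 and 789 CPM in the control samples and 851, 715, 534 and 654 CPM in the mutant samples, with a log2 fold change of -0.39, an SE of 0.18 and an unadjusted p of 0.0418. The groups overlapped, since mutant sample 1 lay above control samples 1 and 3. Dnah1, an inner arm heavy chain, was at 71.1, 42.9 and 49.7 CPM in the control samples and 101, 81.2, 73.3 and 65.4 CPM in the mutant samples, with a log2 fold change of 0.60, an SE of 0.25 and an unadjusted p of 0.0308. Here control sample 1 lay within the mutant range. After TMM scaling the samples of the genotypes did not overlap for 4 of the 137 genes (2.92%), Ccdc78, Ccdc151, Kif3b and Mlf1, against 442 of all 9609 (4.6%). For Ccdc78 this held narrowly, since in unscaled CPM control sample 3, at 174.8, lay above mutant sample 4, at 174.3.

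No cilia gene had a log2 fold change of 1 or more in either direction, as 1.91% of all genes did, and the cilia genes were also measured with smaller error. Their median absolute log2 fold change was 0.11, with a median SE of 0.20, against 0.18 and 0.30 for all genes. Fold changes ran from -0.44 for Trp73, with an SE of 0.26, to 0.60 for Dnah1. In sign 86 were negative and 51 positive, and the median was -0.06, against 0.00 for all genes. Without control sample 1, however, 77 were positive and 61 negative, and the median was 0.03. By list, medians ran from -0.19 for the regulators to 0.08 for the inner dynein arm and nexin link. Foxj1 had a log2 fold change of -0.19 with an SE of 0.18, and Deup1 one of -0.08 with an SE of 0.33.

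**Figure D3:**
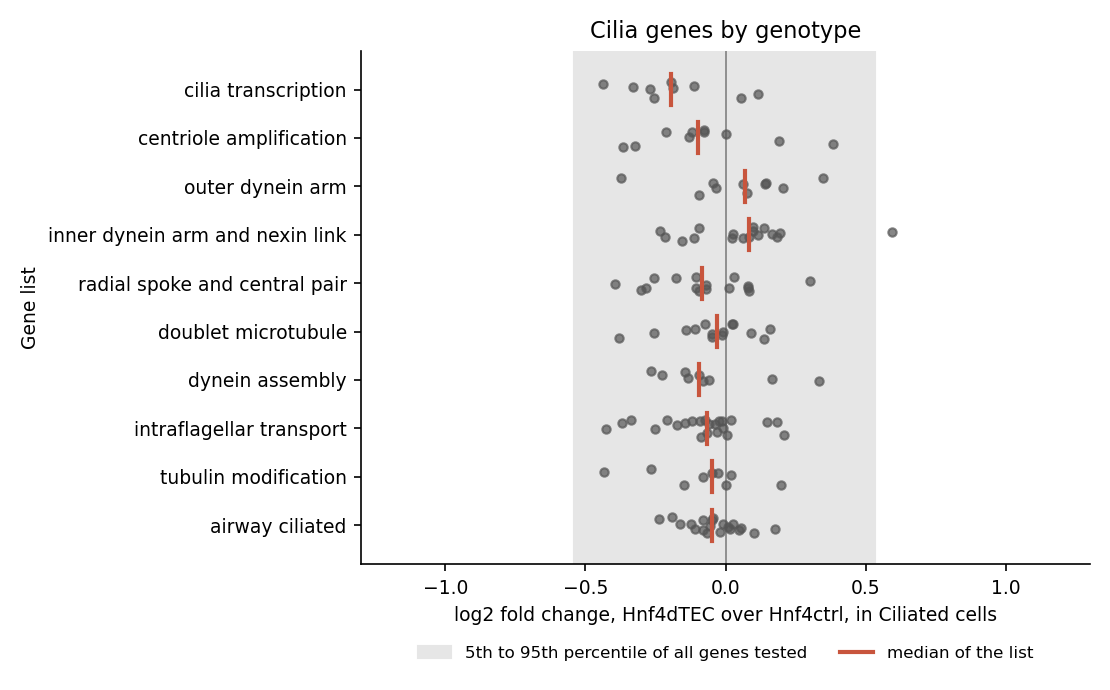
Log2 fold change of each tested cilia gene in Ciliated cells, Hnf4dTEC over Hnf4ctrl (horizontal axis), by gene list (rows), with the median of each list as a red bar and the 5th to 95th percentile of all 9609 genes, -0.54 to 0.53, as a grey band. The points lie within the band except Dnah1 at 0.60, and the list medians lie between -0.19 and 0.08.

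The genes with the smallest unadjusted p are given by value, since none passed the adjustment, with levels as CPM after TMM scaling. Spink1, a trypsin inhibitor of pancreas and gut, was at 35.1, 59.5 and 85.3 CPM in the control samples and 20.3, 32.1, 14.9 and 7.56 CPM in the mutant samples. All mutant samples lay below all control samples, with a log2 fold change of -1.86 and an SE of 0.41 (edgeR's adjusted p = 1.0). In other annotated cells its log2 fold change was -1.80, and the level there was 640 CPM in control samples. The class with the highest level was Entero-hepato, with 6976 CPM. A UMI of Spink1 was present in 37 of the 197 Ciliated cells, and 1 cell of control sample 3 held 28.6% of its UMIs. Whether the counts in Ciliated cells came from RNA of other cells was not tested. Pcbd1, a cofactor of the factor HNF1, was at 246, 199 and 189 CPM in the control samples and 138, 96.3, 115 and 134 CPM in the mutant samples, with a log2 fold change of -0.78 and an SE of 0.19. It was found in 144 cells, its samples did not overlap, and in other cells its log2 fold change was -0.09. The difference between these effects was -0.68 with an SE of 0.23, and the interaction test given below did not call it. Hopx, a homeodomain protein without DNA binding, was at 160, 116 and 137 CPM in the control samples and 65.2, 85.6, 90.5 and 49.7 CPM in the mutant samples, with a log2 fold change of -0.93 and an SE of 0.24. It was found in 139 cells, and in other cells its value was -0.73.

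On the higher side Timp3, an inhibitor of matrix metalloproteinases, was at 11.7, 8.92 and 18.5 CPM in the control samples and 39.1, 40.6, 48.6 and 65.9 CPM in the mutant samples. The groups did not overlap, and the log2 fold change was 1.73 with an SE of 0.35 and an unadjusted p of 0.000205 (edgeR's adjusted p = 1.0). Its UMIs came from 51 cells, of which 1 marked by Scrublet held 18.02%, and other annotated cells were at 149 and 150 CPM in the genotypes. Fcgbp, a mucus protein gene, was at 168, 143 and 106 CPM in the control samples and 227, 274, 218 and 213 CPM in the mutant samples, with a log2 fold change of 0.78 and an SE of 0.20. Tkt and Ckmt1, enzymes of the pentose phosphate pathway and of creatine energy transfer, had log2 fold changes of 0.98 and 0.80 and were found in 135 and 134 cells. With cells thinned to equal depth that of Ckmt1 was 0.18. Krt5, a keratin of basal keratinocytes, was at 1805 CPM in the Immature class and had a log2 fold change of -1.32 in Ciliated cells. However, 37.1% of its UMIs there were in cells marked by Scrublet, and 41.2% of the UMIs of Sprr1a, with 1.72, were in 1 cell. The value of Sprr1a was 0.96 without cells marked by Scrublet, 3.30 without control sample 3 and 4.89 without the 58 cells high for centriole genes that are described further on, a setting chosen after seeing the data.

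The genotype effect was next compared between Ciliated cells and all other annotated cells of the same samples. In the other cells alone edgeR called 40 of 20740 genes (0.193%), 39 of them lower in the mutant samples. Of the difference between the effects, edgeR's interaction test with sample as a block called 0 of 18376 genes, with 585 (3.18%) at an unadjusted p under 0.05. DESeq2 was not run on the interaction. On simulated counts this test recovered 27 of 100 differences of 2-fold and 92 of 100 of 4-fold, again only for changed genes with a mean of at least 20 CPM in Ciliated cells. That simulation held 9609 genes, against the 18376 tested. It gave the other cells 1 fixed spread for all genes and no effect shared by the sums of a sample. Recovery in the real data may therefore be lower. Leaving out samples in turn gave 0 to 3 calls: Cxcl17 without control sample 1, Tnnc2, Reg3b and Reg1 without control sample 2, Csn2, Cxcl9 and Gm11290 without control sample 3, and Retnla without mutant sample 1. Timp3 had the smallest p, with a difference of log2 fold changes of 1.84, an SE of 0.30 and an adjusted p of 0.146. Muc13, a gut mucin gene, was at 53.6 and 55.6 CPM in Ciliated cells of control and mutant samples and at 28.5 and 7.71 CPM in the other cells, a difference of 1.96 with an SE of 0.40 and an adjusted p of 0.408. Of the interferon-induced genes, Ifit3 was at 185 CPM in Ciliated cells of control samples and 82.2 CPM in mutant samples, against 9.84 and 13.8 CPM in other cells, a difference of -1.66 with an SE of 0.43 (adjusted p = 1.0).

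Within the class, cells differed in the genes that make centrioles. To compare cells at equal depth, each was thinned to 8802 UMIs, which left 177 cells and left out 20 shallower ones. The UMIs of Mcidas, Ccno, Deup1 and Cdc20b were summed per cell: 64 cells had 0, the highest had 57, and 58 cells (32.8%) had 5 or more, with a median of 19. That threshold of 5 was chosen after the values were seen, it marks a range and not a cell type, and 16 cells lay between 3 and 6. At the same depth 7 of 727 Aire-expressing and 2 of 460 TA cells reached 5, and 81 of 3250 Tuft cells (2.49%) had any UMI of the 4 genes. Without thinning the share above the threshold was 42.1%. Cells above the threshold had a median of 30786 UMIs before thinning against 22760 below, and Scrublet marked 3 of them and 11 below.

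**Figure D4:**
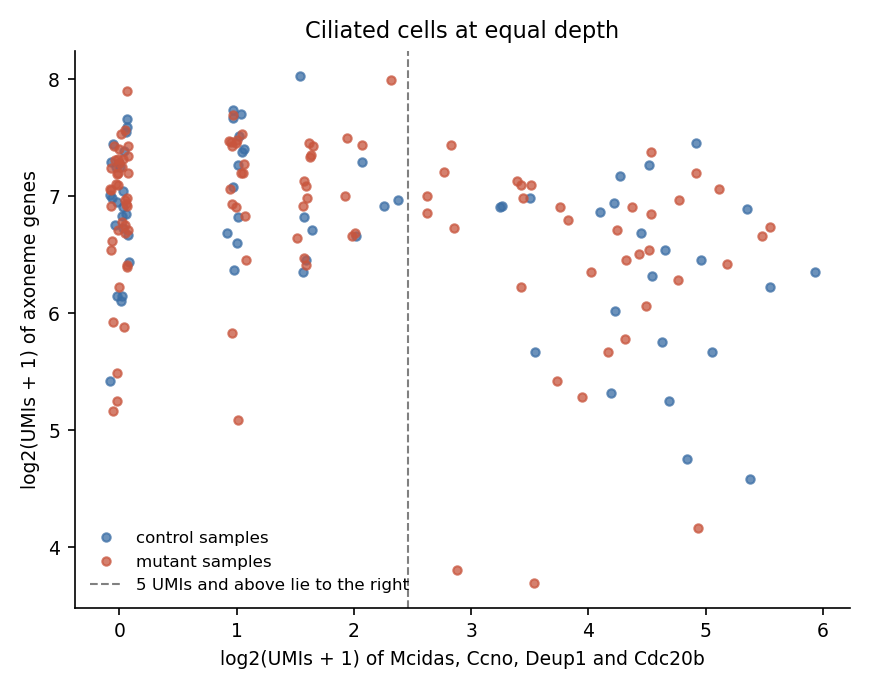
Each point is 1 of 177 Ciliated cells thinned to 8802 UMIs, with log2(UMIs + 1) of Mcidas, Ccno, Deup1 and Cdc20b on the horizontal axis (points shifted slightly sideways) and of 56 axoneme genes on the vertical axis, coloured by genotype. The 58 cells right of the dashed line come from both genotypes and have a median axoneme sum of 101 UMIs, against 131 for the 119 cells left of it.

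The share of cells with 5 or more UMIs was 9.09%, 30.8% and 40.9% for controls 1 to 3. For mutants 1 to 4 it was 25.0%, 27.8%, 31.0% and 41.2%. The means were 26.9% ± 16.3 and 31.2% ± 7.06 (SD, n = 3 and 4), and the groups overlapped. Control sample 1, the lowest, had 1 such cell of 11. The values below are mean UMIs per thinned cell above and below the threshold, and the count of samples is over the 6 with at least 3 cells on each side. Because the threshold used 4 genes of these same cells, the differences in other genes are a description.

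Cells above the threshold carried more of the machinery of centriole assembly. Plk4 had a mean of 3.48 UMIs per cell above and 0.18 below, higher above in 6 of 6 samples, where sample means were 1.5 to 5 and 0.048 to 0.31. Stil (1.81 and 0.11), Cep152 (1.71 and 0.067) and Hyls1, a centriole gene needed for cilia (1.78 and 0.042), did likewise in 6 of 6 samples, and no sample mean overlapped. Foxn4 was at 0.45 and 0.034, and Myb at 3.88 and 1.38, the latter higher in 5 of 6 samples. Part of the mitotic machinery went the same way: Cdk1 was at 2.76 and 0.12, Top2a at 4.05 and 0.16, Cks2 at 9.66 and 0.69 and Cdc20 at 2.17 and 0.18, each higher in 6 of 6 samples. Pcna, the sliding clamp of DNA replication, was at 0.19 and 0.18, while Mcm2 and Ccna2, with 1 and 3 UMIs in all cells, were too scarce to compare. Mki67, a gene of cycling cells, was at 0.21 and 0.034 and higher above in 3 of 6 samples. In Ciliated cells as a whole Mki67 was at 11.5 ± 4.56 CPM, Ccna2 at 1.76 ± 2.59 and Top2a at 182 ± 80.0, whereas TA cells had 268, 115 and 591 CPM. Ccna1, the cyclin A of germ cells and multiciliated cells, was at 138 ± 42.6 CPM against 0.255 in other cells.

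The genes of the finished cilium split by step. Some were at a like level or higher above the threshold: Tekt1 at 3.29 and 2.697 UMIs per cell, Zmynd10, which helps to fold dynein in the cytoplasm, at 3.40 and 1.18, and Dynlrb2 at 20.1 and 11.6, higher in 6, 6 and 5 of 6 samples. The 23 genes of intraflagellar transport summed to 38.4 and 36.3 UMIs. Lower above in 6 of 6 samples were the heavy chains Dnah5 (2.02 and 7.28) and Dnah9 (1.64 and 6.57), the central pair gene Hydin (1.41 and 3.21) and the tip gene Sntn (1.09 and 6.95). The outer arm list summed to 13.2 and 27.1 UMIs. Cdhr4, a cadherin, was at 0.017 and 2.77, with a UMI in 1.72% and 72.3% of cells. Of the X-box factors, Rfx2 was at 0.36 and 1.34 and Rfx3 at 2.16 and 4.76, both lower above in 6 of 6 samples, while Foxj1 was at 4.16 and 5.37. The sum of 56 axoneme genes had a median of 101 and 131 UMIs, and across the 177 cells its log2 correlated with that of the 4 genes with r = -0.33, over cells of the same libraries.

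**Figure D5:**
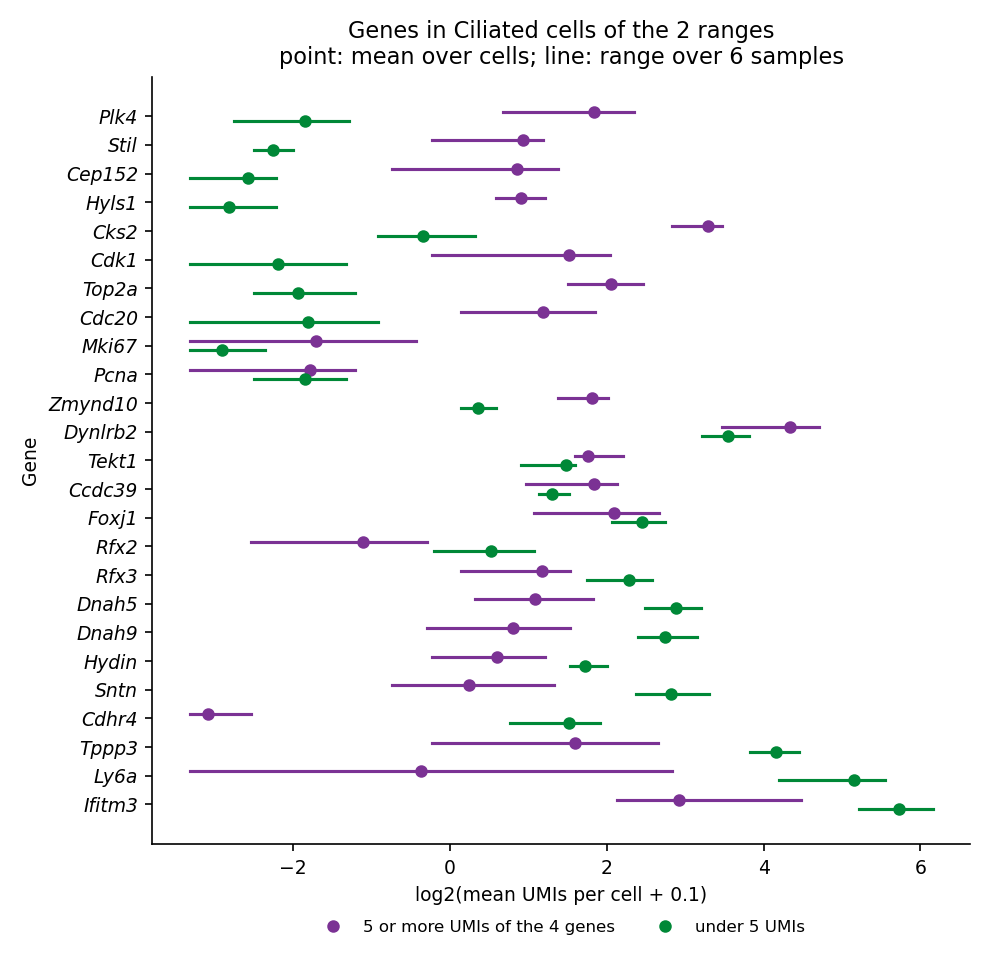
Mean UMIs per thinned cell, as log2(mean + 0.1), of 25 genes in Ciliated cells with 5 or more UMIs of Mcidas, Ccno, Deup1 and Cdc20b (purple) and with fewer (green), with lines spanning the means of 6 samples. Plk4, Stil, Cep152, Hyls1 and Cks2 lie to the right in purple, Pcna overlaps, and Dnah5, Dnah9, Sntn, Cdhr4, Tppp3 and Ifitm3 lie to the right in green.

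Genes outside the cilium also differed between these ranges. Ly6a, a surface protein induced by interferon, had a mean of 0.67 UMIs per cell above and 35.5 below, lower in 6 of 6 samples, and was detected in 8.62% and 89.9% of cells. Ifitm3 was at 7.45 and 52.9, and the MHC class I gene H2-K1 at 14.8 and 43.5. Both are interferon-responsive. The secreted protein genes Wfdc2 (0.41 and 15.03) and Cp (0.052 and 3.12) were lower above as well. Genes of dissociation stress such as Fos summed to 4.45 and 13.4 UMIs, and whether handling set part of these differences was not tested. Over all Ciliated cells Ly6a was at 2534 ± 1077 CPM against 228 ± 37.8 in other cells, with mutant sample 4 lowest at 901.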

How the data were processed

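The authors deposited UMI counts per gene and droplet barcode, with a table giving each annotated cell its sample and class. Cell Ranger 6.1.0, Seurat 4.0.2 and build mm10 are named in the submitters' processing notes, whereas Cell Ranger 7.0.0 stands in the matrix, per the file headers. Annotation matched GENCODE M21 for 54349 of 55487 identifiers. Counts of Ciliated cells, and of all other annotated cells, were summed per sample. Sums of Ciliated cells held 267313 to 1287295 UMIs, which limits low genes.

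Genotypes were compared with edgeR 4.0.16 (R 4.3.3, limma 3.58.1) on all genes passing its default filter on low counts, with TMM scaling, a robust quasi-likelihood test and Benjamini-Hochberg adjustment at 0.05. The fit was tested on simulated data. DESeq2 1.42.0 was an alternative, as were other scaling, other filters, thinned cells, samples left out in turn, a replicate block and cells without those marked by Scrublet (scanpy 1.11.5, Python 3.11.15, NumPy 2.4.6, SciPy 1.17.1, expected doublet rate 0.1, at least 500 genes). The replicate numbers were not used as pairs in the main fit. Same-numbered samples of the genotypes had correlations of 0.07, 0.05 and 0.09, and differently numbered ones -0.21 to 0.26. With so few samples these values cannot decide whether the numbers pair the samples. Members and gene lists were chosen with earlier results of these data known. The text names Hnf4a, Hnf4g, Foxn1, genes past the threshold, from the 8 genes per direction with the smallest unadjusted p and a mean of at least 20 CPM, from the 30 genes with the largest class difference, and genes of the cilia lists. Genes of other lists and of cell ranges were chosen after their values were seen. The 8904 barcodes with no class were left out of all comparisons.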

Additional observations from a re-analysis of the deposited data

Results flagged for a closer look

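In 76 groups of samples checked for a sample far from the others, 4 were found, and chance gives such a sample in about 1 in 20 groups. Tkt was at 152 CPM in mutant sample 2, against 82.0 to 86.1 CPM in the other mutant samples. Phkg1, a kinase subunit of glycogen breakdown, was at 60.9 CPM in mutant sample 2, against 28.3 to 32.3 CPM. Skint2, of a family known from skin and thymic epithelium, was at 19.3 CPM in mutant sample 3, against 41.5 to 44.7 CPM. Gm19935, a gene model without a known role, was at 748 CPM in control sample 1, against 208 to 426 CPM in the other 6 samples.

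Outside the annotated cells, 192 barcodes without a class had UMIs of at least 4 of the 6 given markers, close in number to the 197 Ciliated cells. Of these, 109 carried a second strong hash tag (at least 150 UMIs and 20% of the tags). The median depth was 32823 UMIs over all 192 barcodes and 34755 over the 109, against 23527 in Ciliated cells. The sample of origin of these barcodes was not analysed here.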

How the results depend on the processing

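The count of genes called between genotypes in Ciliated cells was 0, and 43 with no filter on low counts. Leaving out each sample gave 0 to 1, and the difference of genotype effects gave 0 to 3. The log2 fold change of the share was -0.04. It was 0.055 without Tuft cells, 0.022 without Scrublet-marked cells and 0.0043 for cells with at least 4 markers, and the log2 ratio of the mean shares, beside the exact permutation, was 5.5e-05. Leaving out samples gave -0.22 to 0.35, with the sign turned without control sample 3 (0.35), mutant sample 1 (0.053) or mutant sample 2 (0.067). The median of the cilia lists ran from -0.059 to 0.028. With the replicate block, over 6 samples, the genotype test called 0 genes (lowest adjusted p of edgeR 0.0754), and the share gave -0.14. The cause of these shifts was not tested. Alternatives chosen after seeing the data were thresholds of 3 and 8 UMIs (38.4% and 29.4% of cells, against 32.8%), unthinned cells (42.1%), the shorter promoter motif GTTGCC (35.0% against 13.7% for the X-box) and a genotype test without the 58 cells of the higher range, which called 0 genes. Leaving out cells with a wrong hash tag and dropping the minimum of 10 cells changed no data. Of the values for single genes under other settings, 664 kept their side of the threshold or moved by less than the spread, 2 moved, 6 passed the threshold and 0 reversed. A fold change that kept its sign and stayed short of the threshold counted as kept at any size. Hnf4g, at -1.96 in the main fit and -0.33 without control sample 2, was such a case, so the tally does not show that sizes were stable. Control samples 1 and 2, with 14 Ciliated cells each, limit what the depth can show.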
